A study of Mus musculus with 10 samples.

Results

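Cathepsins are proteases of the lysosome, and 10 cathepsin genes are described here in haematopoietic stem cells (HSCs) of adult mice with or without an induced Sox17 transgene: Ctsb, Ctsc, Ctsd, Ctse, Ctsf, Ctsh, Ctsk, Ctsl, Ctss and Ctsz. A gene was represented by the probe set that carries its symbol alone and has the highest mean over all 10 arrays. Each of the 10 had exactly 1 such probe set, among 19938 genes with a one-gene probe set. The family was picked because cathepsin S, Ctss, was among the genes that differed between transgenic and wild-type cells. The differences between these groups are therefore given for the family as a description, with no test read from them.

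Most cathepsins are papain-like cysteine proteases, made as inactive proenzymes, carried to the lysosome by mannose 6-phosphate receptors and trimmed to their active form at acid pH. Endopeptidases such as cathepsins S, L, K and F cut within a protein chain, exopeptidases such as cathepsins B, C, H and Z remove residues from its ends, and cathepsins D and E use an aspartate in place of the cysteine. In blood cells they degrade proteins from endocytosis and autophagy, cut the invariant chain off MHC class II molecules and activate the serine proteases of granules.

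The data are 10 Affymetrix Mouse Gene ST 1.0 arrays, 5 in each group. The transgenic mice carried (tetO)7CMVSox17-IRES-NucEGFP, a Sox17 and nuclear green fluorescent protein cassette under a tetracycline-responsive promoter, together with the reverse tetracycline activator rtTA*M2 from the Gt(ROSA)26Sor locus, which is active in most cell types. The controls were littermates labelled wild type. All mice were 8 weeks old and drank doxycycline at 2 mg/ml for 5 days. Each array held RNA from 10000 bone marrow cells sorted by the gate CD150+, CD48-, Lineage-, Sca1+, cKit+. No label ties an aliquot to an animal, so the p-values cover only sample-to-sample spread, part of which may be technical. Values are log2 units of the RMA method, in which 1 unit is a doubling, and different genes' levels are not compared, since each probe set has its own brightness.

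The Sox17 probe set read 4.25 to 4.51 in transgenic and 4.02 to 4.30 in wild-type samples, near the lower end of the scale, so the direction of every difference rests on the arrays' labels. Of 23410 probe sets tested with limma across the whole table, 33 passed an adjusted p of 0.05 (Benjamini-Hochberg), 28 of them higher on the transgenic arrays. The arrays also fell into 2 sets that cut across the groups. Transgenic arrays 1 to 3 and wild-type arrays 1 and 2 made up set A, and the other 5 arrays set B. The sets were read from the first principal component of what was left after group means were subtracted, which held 40.1% of that variance. Transgenic array 4 was the 1 array with the Y-linked genes high and Xist low (4.32, against at least 10.8 elsewhere). Of 13 HSC markers listed 11 were measured, all 11 had a mean above the median of tested probe sets, and 0 passed the threshold. Their differences ran from -0.47 for Kit (SE 0.12) to 1.08 for Procr (SE 0.27). The groups did not overlap for Procr, as they did not, with higher transgenic values, for 0.876% of all tested probe sets.

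Ctss and Ctsh were higher on every transgenic array than on any wild-type array, and the other 8 cathepsins overlapped between the groups. Ctss was the 1 member of the 10 past the threshold, where 0.12% of all tested probe sets passed in that direction, and 0 members passed in the other, where 0.0214% did. A complete separation with higher transgenic values was found for 0.876% of all probe sets. Since the family was picked on this contrast, nothing is read from these counts. The differences of the 10 members had a median of 0.29, against -0.01 for all tested probe sets, and 9 were above 0, as were 46.3% of all tested probe sets.

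**Figure D1:**
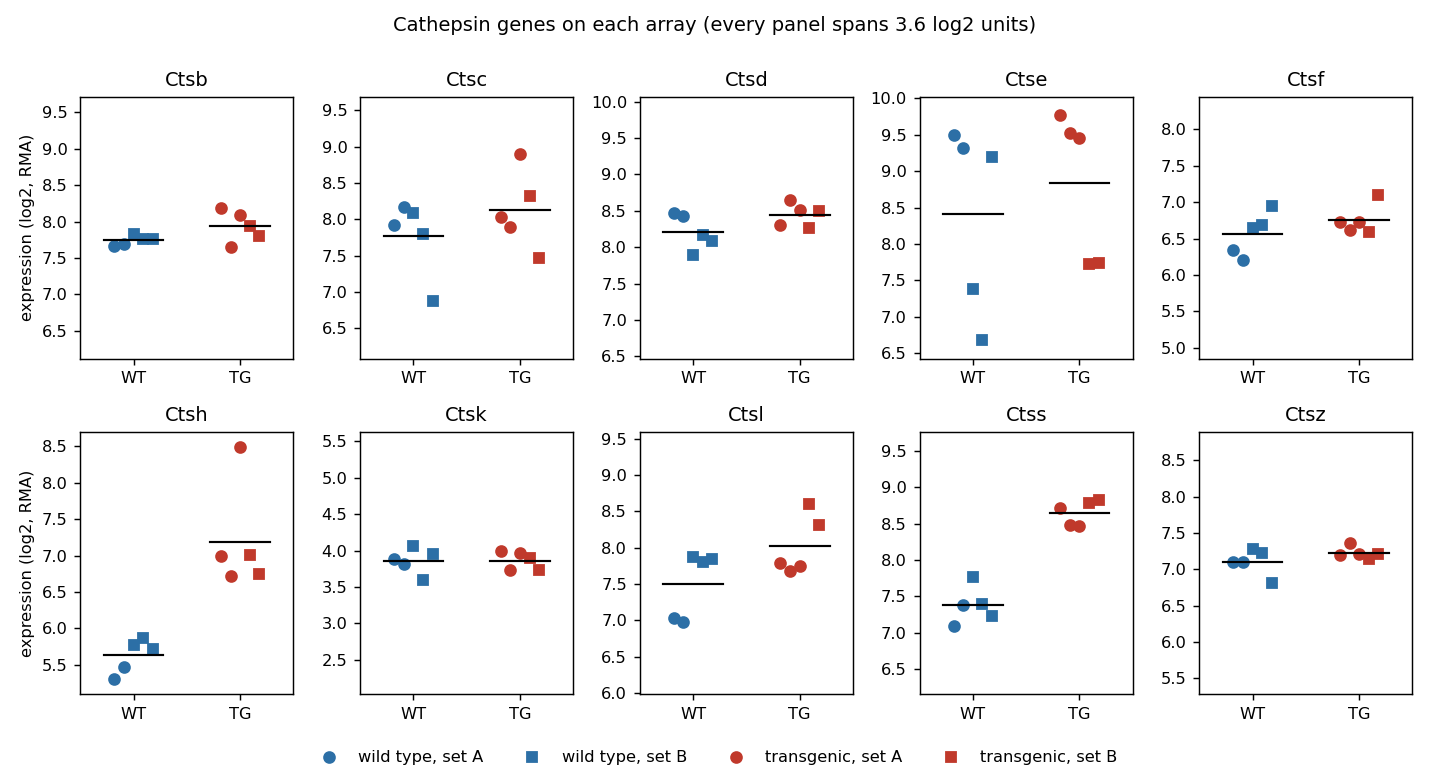
Log2 expression of the 10 cathepsin genes on each array, wild type (WT) on the left and transgenic (TG) on the right of each panel. Circles are arrays of set A, squares of set B, and the black bar is the group mean of 5 arrays. Ctss and Ctsh are the 2 panels without overlap, and Ctse spreads widely in both groups.

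Cathepsin S is an endopeptidase that stays active at neutral pH and takes the last steps of invariant chain removal in B cells, dendritic cells and macrophages. Ctss read 8.71, 8.49, 8.47, 8.78 and 8.82 on transgenic arrays 1 to 5 and 7.10, 7.38, 7.77, 7.40 and 7.24 on wild-type arrays 1 to 5. The lowest transgenic array stood 0.70 above the highest wild-type array. The group means were 8.65 ± 0.16 and 7.38 ± 0.25 (SD, n = 5 each), a difference of 1.28 (SE 0.13, 95% interval 1.00 to 1.56), or 2.42-fold with an interval of 1.99 to 2.94. The difference was alike in both array sets, at 1.32 (A) and 1.33 (B). Leaving out any 1 array gave 1.21 to 1.37. In sorted populations such as these, more RNA per cell and more cells of a type that holds the RNA cannot be told apart.

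Cathepsin K, the collagen-degrading enzyme of osteoclasts, is encoded by the gene next to Ctss, with no other protein-coding gene between them in the RefSeq annotation of GRCm38.p6. Ctsk read 3.73 to 3.99 in transgenic and 3.59 to 4.06 in wild-type samples. These values lie at the array's lower end, with a mean at the 16.5 percentile of tested probe sets. The difference for Ctsk was 0.00 (SE 0.10, interval -0.22 to 0.22). The neighbouring genes thus showed different patterns, 1 separated by group and 1 near the floor, where a change at low level would be compressed.

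The 250 bases before the start sites of this pair are shown because the genes lie side by side and differ in this way. They come from the RefSeq promoter table of GRCm38.p6, in which 7 of the 10 members were found, and run 5′ to 3′ on the gene's strand, which is the plus strand for both. Capitals mark GAGGAA, the PU box bound by the myeloid and lymphoid factor PU.1, or its reverse complement, and a pair of GAAA repeats 2 bases apart, the core of the interferon-stimulated response element. The windows are chr3:95526536-95526785 for Ctss and chr3:95498960-95499209 for Ctsk.
Ctss: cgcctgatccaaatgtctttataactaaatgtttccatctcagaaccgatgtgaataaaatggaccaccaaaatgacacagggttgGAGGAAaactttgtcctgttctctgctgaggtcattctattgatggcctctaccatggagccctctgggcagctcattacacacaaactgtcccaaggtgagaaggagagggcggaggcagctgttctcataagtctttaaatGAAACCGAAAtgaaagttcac
Ctsk: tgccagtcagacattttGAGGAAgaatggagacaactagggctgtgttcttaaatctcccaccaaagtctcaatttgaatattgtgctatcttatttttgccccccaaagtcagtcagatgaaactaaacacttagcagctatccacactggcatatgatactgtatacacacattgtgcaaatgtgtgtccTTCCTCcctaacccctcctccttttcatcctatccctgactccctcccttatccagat
The Ctss window held GAGGAA from 164 to 159 bases before the start site and the paired GAAA repeats from 21 to 12 bases before it. The Ctsk window held GAGGAA once on each strand, 233 to 228 and 58 to 53 bases before the start, and the paired repeats on neither. Searched on both strands, GAGGAA occurred in 23.2% and the paired repeats in 2.98% of all 32851 windows of this length. A match of letters is a description of the window and not a binding site, and these motifs were chosen after the windows had been read.

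Cathepsin L is the endopeptidase of the thymus and of many other tissues, with a broad part in lysosomal protein breakdown. Ctsl read 7.79, 7.69, 7.75, 8.60 and 8.32 on transgenic arrays 1 to 5 and 7.03, 6.98, 7.87, 7.81 and 7.84 on wild-type arrays 1 to 5. It was higher in set B in both groups, by 0.71 among transgenic and by 0.83 among wild-type arrays, and the groups overlapped over all 10 arrays. Within a set they did not: transgenic arrays read 7.69 to 7.79 against 6.98 and 7.03 in set A, and 8.32 and 8.60 against 7.81 to 7.87 in set B. The difference was 0.52 over all arrays (SE 0.24, interval 0.00 to 1.05), 0.74 within set A and 0.62 within set B. With the set as a block it was 0.68 (SE 0.08) and passed the threshold of adjusted p, as did 0.389% of all probe sets. The sets were defined from these same arrays, which lowers the residual spread by construction. With 3 against 2 arrays in set A and 2 against 3 in set B, separation within a set is easily reached. The share of all probe sets separated in this way was not counted, so nothing is read from it.

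Cathepsin F, an endopeptidase with a long cystatin-like propeptide, read 6.58 to 7.10 in transgenic and 6.21 to 6.95 in wild-type samples. Its difference was 0.19 (SE 0.15, interval -0.14 to 0.51). The highest value in either group was on array 5, 7.10 transgenic and 6.95 wild type. The endopeptidases thus held 1 gene separated by group (Ctss) and 1 near the floor (Ctsk). Ctsf and Ctsl overlapped over all arrays, Ctsl with a shift between the array sets.

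Among the exopeptidases Ctsh had the largest difference of the 10 members. Cathepsin H removes amino acids from the N terminus of proteins and is best known for the processing of surfactant proteins in the lung. Ctsh read 7.00, 6.72, 8.50, 7.00 and 6.75 on transgenic arrays 1 to 5 and 5.30, 5.47, 5.78, 5.87 and 5.71 on wild-type arrays 1 to 5. Transgenic array 3 stood far above the other 4 transgenic arrays, and the lowest transgenic array was still 0.85 above the highest wild-type array. The means were 7.19 ± 0.74 and 5.63 ± 0.23 (SD, n = 5 each). The difference of 1.57 (SE 0.30, interval 0.91 to 2.23) was 2.96-fold, with an interval of 1.87 to 4.68, and did not pass the threshold over all probe sets. Set A alone gave 2.02 and set B alone 1.09. Without transgenic array 3 the difference fell to 1.24 and passed the threshold (limma, adjusted p = 0.00877). Of the 10 fits that each left out 1 array, this was the only 1 to pass, and limma adjusted p ran up to 0.221. As the family was picked on this contrast, that call is a description only.

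Cathepsin C, also called dipeptidyl peptidase I, activates granule serine proteases by removing a dipeptide. Ctsc read 8.03, 7.89, 8.89, 8.32 and 7.47 on transgenic arrays 1 to 5 and 7.92, 8.17, 8.08, 7.80 and 6.88 on wild-type arrays 1 to 5. The highest value was again on transgenic array 3, and the lowest in each group was on array 5. Its difference of 0.35 (SE 0.29, interval -0.28 to 0.98) was smaller than the spread within either group (SD 0.53 and 0.52). Ctsc also had a wide spread among all genes, at the 96.0 percentile of the pooled deviation from the group means.

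Cathepsin B acts at the C terminus of proteins and is abundant in most cells. Ctsb read 8.19, 7.65, 8.09, 7.94 and 7.80 on transgenic arrays 1 to 5 and 7.66 to 7.83 on the wild-type arrays. Of the 5 transgenic arrays 3 stood above all wild-type arrays and 1 stood below them. The difference was 0.19 (SE 0.10, interval -0.04 to 0.42). Cathepsin Z, also called cathepsin X, is a carboxypeptidase that removes single residues. Ctsz read 7.14 to 7.36 in transgenic and 6.82 to 7.28 in wild-type samples. Its difference was 0.12 (SE 0.09, interval -0.08 to 0.33), and its spread within the groups was small (pooled SD 0.14).

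The aspartic cathepsins overlapped between the groups, and Ctse varied most of all members. Cathepsin D is the main aspartic protease of the lysosome, and Ctsd read 8.30, 8.65, 8.51, 8.27 and 8.49 on transgenic arrays 1 to 5 and 8.47, 8.42, 7.89, 8.17 and 8.08 on wild-type arrays 1 to 5. Its difference was 0.24 (SE 0.12, interval -0.03 to 0.51), with 0.04 in set A and 0.33 in set B. Both wild-type arrays of set A lay within the transgenic range, and the 3 wild-type arrays of set B lay below it.

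Cathepsin E is an aspartic protease of endosomes found in gastric, lymphoid and red cell lineages. Ctse read 9.77, 9.52, 9.46, 7.73 and 7.74 on transgenic arrays 1 to 5 and 9.49, 9.32, 7.38, 6.68 and 9.19 on wild-type arrays 1 to 5. The arrays fell into 6 with values of 9.19 or more and 4 with values of 7.74 or less, and each group held arrays of both kinds. The 4 low arrays all belonged to set B, and the 1 remaining array of set B, wild-type array 5, was high. The spread within the groups was at the 99.8 percentile of tested probe sets (pooled SD 1.16). The difference between the groups was 0.43 (SE 0.63, interval -0.95 to 1.81), an interval that runs from 0.517-fold, a fall, to 3.51-fold, a rise. Ctse and Ctsl thus both moved with the array sets, Ctse lower and Ctsl higher in set B in each group.

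**Figure D2:**
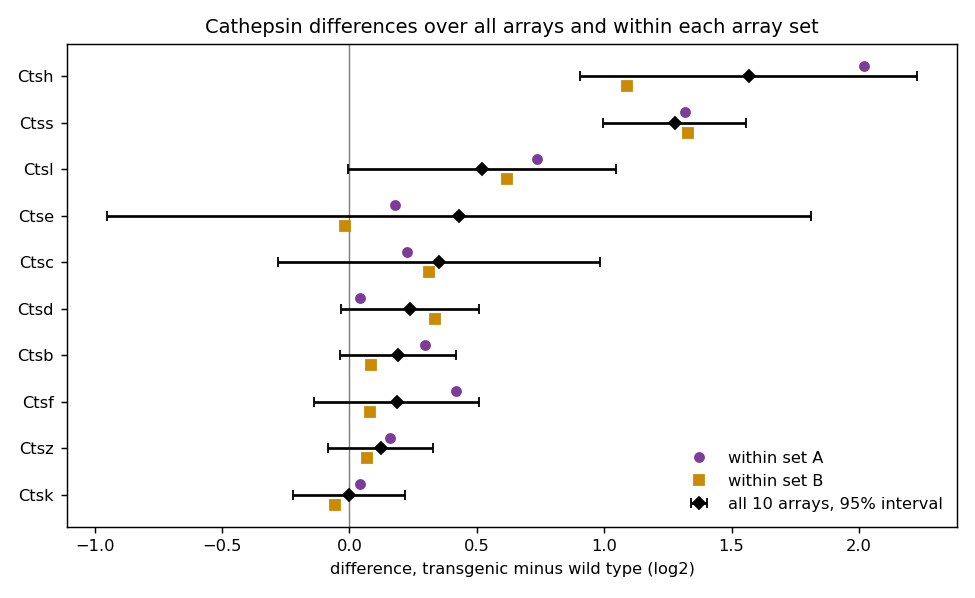
Difference in log2 expression, transgenic minus wild type, for the 10 cathepsin genes. Diamonds with bars are the limma estimate over 10 arrays with its 95% interval, circles the difference within set A and squares that within set B. The intervals of Ctsh and Ctss are the 2 that lie wholly above 0, and both of their within-set values are above 1.

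Promoter windows of the other members are described by motif, with Ctsl and Ctsd printed because both hold the letters CACGTG, the E-box core of the element through which TFEB and related factors act on lysosomal genes. Capitals mark CACGTG. Both genes lie on the minus strand of GRCm38.p6, with windows chr13:64370521-64370770 for Ctsl and chr7:142387828-142388077 for Ctsd.
Ctsl: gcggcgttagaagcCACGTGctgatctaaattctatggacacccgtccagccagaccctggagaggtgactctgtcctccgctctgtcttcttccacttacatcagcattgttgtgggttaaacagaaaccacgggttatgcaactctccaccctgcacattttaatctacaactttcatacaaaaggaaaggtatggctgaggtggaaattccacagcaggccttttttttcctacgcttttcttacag
Ctsd: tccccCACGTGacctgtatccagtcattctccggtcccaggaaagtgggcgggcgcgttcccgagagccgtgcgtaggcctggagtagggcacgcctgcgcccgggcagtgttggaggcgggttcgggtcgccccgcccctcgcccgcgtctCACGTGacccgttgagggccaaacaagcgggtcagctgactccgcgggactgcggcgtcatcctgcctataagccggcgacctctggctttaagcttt
CACGTG occurred 236 to 231 bases before the start of Ctsl, and in Ctsd at 245 to 240 and 98 to 93 bases before the start. Ctsf held it once, and the windows of Ctsc, Ctsk, Ctss and Ctsz did not have these letters. Over all windows 6.02% held it. The letters ACAAT, the core of motifs bound by SOX proteins, occurred on either strand in the windows of Ctsf, Ctsk, Ctsl and Ctsz and in 27.7% of all windows. The windows of Ctss, Ctsc and Ctsd did not hold ACAAT. Here too a match of letters describes the window and is not a binding site.

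Of 98 genes listed around the cathepsins, 85 had a one-gene probe set, and 0 passed the threshold in limma. In 15 of them the unadjusted p was under 0.05, 12 higher and 3 lower, where 6.59% of all tested probe sets had such a p (3.7% higher and 2.9% lower). The lists held other cathepsins, inhibitors, sorting and activating factors, acid hydrolases, lysosomal membrane and proton pump genes with the TFE factors, class II processing genes and proteases activated by cathepsin C.

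Of the inhibitors 8 of 11 were measured, and their differences had a median of 0.06. Ctla2b, which resembles the propeptide of cathepsin L, averaged 8.05 ± 0.33 in transgenic and 7.61 ± 0.27 in wild-type samples (SD, n = 5 each), a difference of 0.44 (SE 0.17, limma adjusted p = 0.631). With the array set as a block it passed (limma adjusted p = 0.0473), the only listed pathway gene to do so, where 0.389% of all probe sets passed. The sets were defined from these same arrays, which lowers the residual spread by construction, so nothing is read from this call. The inhibitor Cst6 differed by 0.21 (SE 0.10, limma adjusted p = 0.792). Cst3, the secreted cystatin C, read 10.1 and 9.99 in group means, with a difference of 0.09 (SE 0.08), and Cstb, the intracellular inhibitor of several cathepsins, differed by 0.03 (SE 0.17).

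Among 10 other cathepsins measured of 12 listed, the median difference was 0.00, and the placental genes Cts6, Cts7, Cts8, Ctsj and Ctsq were under 4.08, the 20th percentile of the tested probe sets' values, on every array. Cts7 differed by 0.19 (SE 0.10, limma adjusted p = 0.821). Cathepsin G, a serine protease of neutrophil granules, read 4.11 to 4.14 on transgenic arrays 1 to 3, 5.03 on transgenic array 4 and 6.53 on transgenic array 5, while no wild-type array exceeded 4.34 (limma adjusted p = 0.897). It is itself activated by cathepsin C, as is Prtn3, which differed by 0.36 (SE 0.19, limma adjusted p = 0.824). The 5 listed targets had differences of 0.01 to 0.63, with a median of 0.32, and Gzma was under the 20th percentile on every array. The median was the value of Elane, which differed by 0.08 within set A and 0.76 within set B.

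Of 23 acid hydrolases measured, 16 had positive differences, as had 46.3% of all tested probe sets, and the list median was 0.14. In 8 the unadjusted limma p was under 0.05, all higher, where 3.7% of all tested probe sets had such a p in that direction. The lists were chosen with earlier results known, so nothing is read from these counts. The list mean was 6.864 to 7.10 in transgenic and 6.71 to 6.856 in wild-type samples, without overlap. How often means of such lists separate was not measured. The beta-galactosidase Glb1 read 7.25 to 7.53 in transgenic and 6.82 to 7.14 in wild-type samples. Its groups did not overlap, as those of 0.876% of all probe sets did not with higher transgenic values. The Glb1 difference of 0.40 (SE 0.08, limma adjusted p = 0.122) did not pass. The galactocerebrosidase Galc was 0.94 higher (SE 0.31, limma adjusted p = 0.475), with 7.16 to 8.97 against 6.81 to 7.72. Among 9 sorting and activating factors the median was 0.10. Scarb2, the receptor that carries glucocerebrosidase to the lysosome, differed by 0.54 (SE 0.15, limma adjusted p = 0.354), and Lgmn, the legumain that cleaves proenzymes of several cathepsins, by 0.44 (SE 0.22, limma adjusted p = 0.809). Within sets A and B the differences were 0.53 and 0.60 for Scarb2, and -0.01 and 0.96 for Lgmn.

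The 22 measured genes of the lysosomal membrane, the proton pump and the TFE factors had a median of 0.04. Lamp2, a major membrane protein of the lysosome, differed by 0.49 (SE 0.22, limma adjusted p = 0.765) and the pump subunit Atp6v0d1 by 0.30 (SE 0.13, limma adjusted p = 0.744). Tfeb, the transcription factor that drives lysosomal genes, differed by 0.17 (SE 0.13, limma adjusted p = 0.928), and Tfe3 and Mitf by 0.01 and -0.05.

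Class II processing genes, among them the gene of the invariant chain, had a median of -0.22 over 9 measured genes, 7 below 0 and 2 above. The largest difference was that of H2-Aa, at -0.79 (SE 0.23, limma adjusted p = 0.383), with 4 of 5 transgenic arrays below all wild-type arrays. H2-Eb1, a class II beta chain, read 5.91 to 6.28 in transgenic and 6.39 to 6.75 in wild-type samples, a difference of -0.46 (SE 0.10, limma adjusted p = 0.150). H2-DMa, part of the peptide exchange factor, read 7.82 to 8.25 against 8.37 to 8.66 and differed by -0.42 (SE 0.10, limma adjusted p = 0.237). Neither gene overlapped between the groups, as 0.594% of all probe sets did not with lower transgenic values, and neither passed the threshold. H2-Oa, part of the inhibitor of that exchange factor, went the other way, with 6.98 to 7.59 against 6.53 to 6.93 and a difference of 0.46 (SE 0.13, limma adjusted p = 0.377). Its groups did not overlap, as those of 0.876% of all probe sets did not with higher transgenic values, and it did not pass. The invariant chain gene Cd74, whose product cathepsin S cuts, differed by -0.16 (SE 0.15, limma adjusted p = 0.943).

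**Figure D3:**
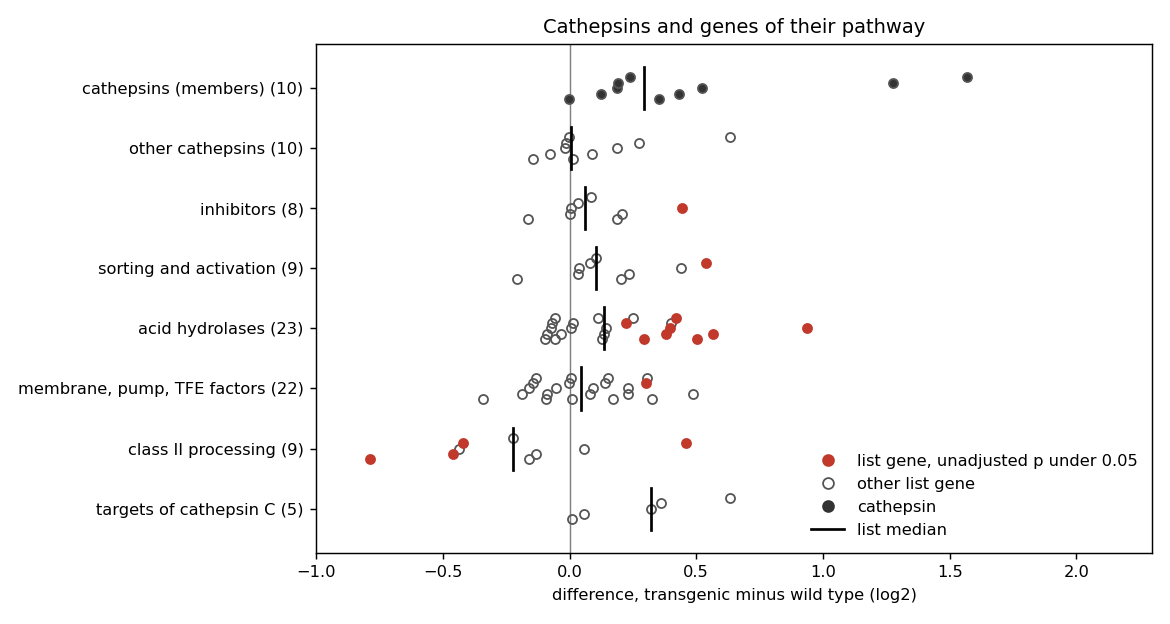
Difference in log2 expression, transgenic minus wild type, for each cathepsin and each measured gene of the 7 pathway lists, with the number of genes in brackets. Filled red points are listed genes with an unadjusted limma p under 0.05, black bars are list medians, and 0 listed genes passed after adjustment. Acid hydrolases hold 8 of the red points, and the 3 red points below 0 are all class II processing genes.

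Markers of other cell types were read beside these values. Cathepsin S is high in macrophages and dendritic cells. Of 18 monocyte and macrophage markers 16 were measured, their mean ranged from 5.03 to 5.31 in transgenic and from 4.90 to 5.20 in wild-type samples, and Adgre1 and Ccr2 were under the 20th percentile on every array. All 6 dendritic markers were measured, with means of 4.31 to 4.49 and 4.40 to 4.67, and Xcr1 was under that percentile throughout. Of 8 B cell markers 7 were measured, with means of 4.75 to 5.02 and 4.86 to 5.14, and Cd79a, Ebf1 and Ms4a1 were under it. The means of these 3 lists overlapped between the groups, and 0 of their genes passed the threshold. Of the 16 measured macrophage markers 10 had positive and 6 negative differences, with a median of 0.02 and the lowest at -0.16 for Ccr2. Among them Lyz2, the lysozyme of myeloid cells, read 8.57 to 9.08 in transgenic and 8.09 to 8.48 in wild-type samples. Its groups did not overlap, as those of 0.876% of all probe sets did not with higher transgenic values. The Lyz2 difference was 0.36 (SE 0.12, limma adjusted p = 0.455). Cd68, a lysosomal membrane protein of macrophages, differed by 0.56 (SE 0.27, limma adjusted p = 0.777), with 4 of 5 transgenic arrays above all wild-type arrays. The part of these markers in the Ctss difference was not tested. The osteoclast list, beside Ctsk, averaged 4.86 to 5.04 and 4.94 to 5.14 over its 5 genes.

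The means of 3 other marker lists did not overlap between the groups, and how often the means of such small lists separate was not measured. The multipotent progenitor list of 3 genes (Flt3, Cd48 and Cd34) averaged 7.53 to 8.41 in transgenic and 6.64 to 7.37 in wild-type samples. Flt3 differed by 1.53 (SE 0.32), Cd48, whose product the sorting gate excludes, by 1.34 (SE 0.29), and Cd34 by 0.19 (SE 0.11). The endothelial list of 5 genes averaged 6.35 to 7.15 against 5.99 to 6.25 and was highest on transgenic array 3, the array on which Ctsh and Ctsc were highest. The megakaryocyte and platelet list, with 6 of 7 genes measured, averaged 6.14 to 6.40 against 6.80 to 7.40, and Pf4 was its 1 gene past the threshold. In the progenitor and endothelial lists 0 genes passed. Single genes ran against their list, with Itgb3 of the platelet list at 0.60 and Kdr of the endothelial list at -0.04. The part of these lists in the differences of Ctss and Ctsh was not tested. The granulocyte list of 12 genes, Ctsg among them, averaged 4.84 to 5.94 against 4.68 to 4.99 and was highest on transgenic array 5, and Ngp and Ly6g were under the 20th percentile throughout. The erythroid list averaged 6.26 to 6.83 against 6.75 to 7.27 over 5 of its 6 genes, the T and NK cell list 4.38 to 4.87 against 4.66 to 4.88 over 6 genes with Cd3g under the 20th percentile, and the HSC list 8.28 to 8.36 against 8.02 to 8.33 over 11 of 13 genes.

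**Figure D4:**
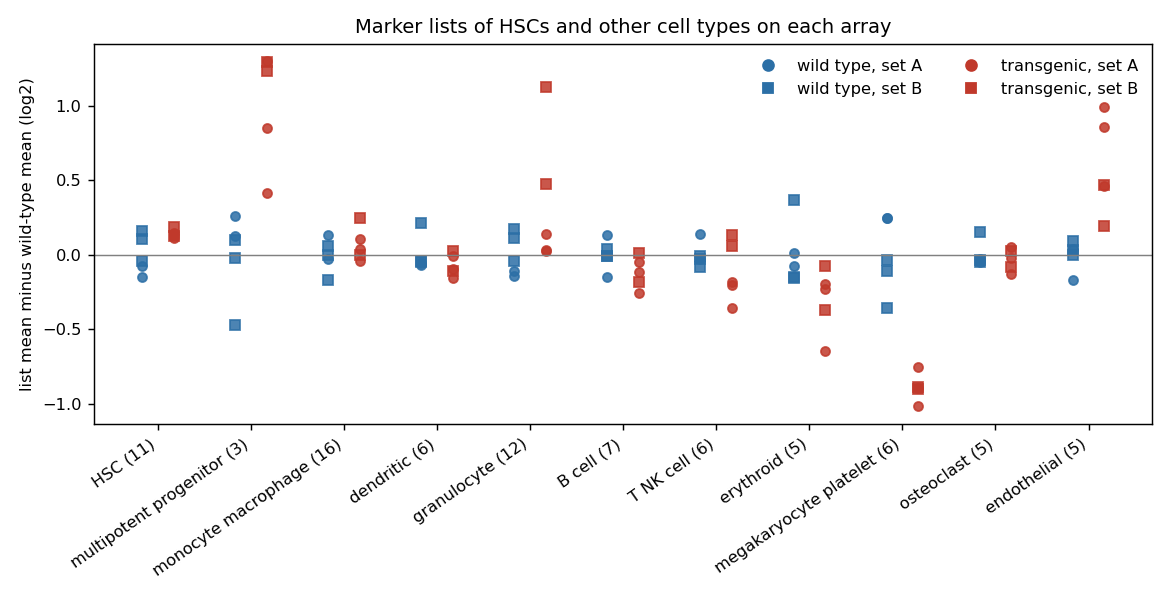
Mean log2 expression of each marker list on each array, minus the mean of the 5 wild-type arrays, with the number of measured genes in brackets. Blue marks are wild-type and red marks transgenic arrays, circles set A and squares set B. The means of the multipotent progenitor, megakaryocyte and endothelial lists do not overlap between the groups, and those of the monocyte and dendritic lists do.

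The genes whose deviations from the group means were most like those of Ctss over the 10 arrays were Rpa3 (Pearson r = 0.978), Cox6b2 (0.953), Ccdc134 (0.949), Ifi35 (0.944) and Zfyve21 (0.923), out of 9884 genes above the median level. With so few arrays, and with these falling into sets, values of this size are found by search and are a description only. None of the 5 passed the threshold between the groups, and Rpa3, a subunit of replication protein A, differed by -0.36 (SE 0.15, limma adjusted p = 0.686).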

How the data were processed

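The values are log2 expression of each probe set on each array, as deposited by the authors in 1 table and made with RMA per the submitters' processing notes, which also name affy and limma. The sources used here give no versions or settings and no genome build. RMA equalises the arrays' distributions and compresses differences near the floor. The platform annotation paired 21789 of 35556 probe sets with 1 gene symbol, 1621 with several and 12146 with none here. Identifiers of 21698 were found in RefSeq (GRCm38.p6) and 0 symbols changed.

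The 23410 named probe sets were fitted with limma 3.58.1 in R 4.3.3 (lmFit, eBayes, two-sided, Benjamini-Hochberg over all), transgenic minus wild type, on the values as deposited and with no filter. The limma fit, but not the other steps, was tested on simulated data without array sets. Members and lists were chosen with earlier results of these data known. Named pathway genes were those past the threshold and the 2 with the smallest p in each list, plus the 5 genes most like Ctss; further genes named were chosen after their values were seen. Precision is limited by the number of arrays.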

Additional observations from a re-analysis of the deposited data

Results flagged for a closer look

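In 20 groups of 5 values, 10 genes in each group of arrays, 1 value lay apart from the other 4 by more than Dixon's critical ratio of 0.71, and chance flags about 1 group in 20. Ctsh read 8.50 on transgenic array 3, against 6.72 to 7.00 on the other transgenic arrays.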

How the results depend on the processing

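The Ctss difference stayed above 0 and past the threshold in each of these: the replicate block (adjusted p = 0.0336), quantile normalization, centring on the array median, all or only the brighter probe sets tested, trended and robust eBayes, array weights, a floor at the 20th percentile, a threshold of 0.01, averaging a gene's probe sets (here the same probe set) and leaving out each array (1.21 to 1.37, adjusted p 0.00111 to 0.0201). With fewer arrays, within set A (1.32, adjusted p = 0.0633) and within set B (1.33, adjusted p = 0.115), it did not pass, and 0 cathepsins were called in either set. These set-based fits were chosen after seeing the data. All of these fits reuse the same arrays, and the family was picked on this contrast because of Ctss. They therefore describe how the value depends on processing and are no separate support for the difference. The number of cathepsins called was 1 to 2 when an array was left out, 2 without transgenic array 3 (Ctsh added), and 2 when the set was a block (Ctsl added). Pathway genes called numbered 1 with that block and 0 with any array left out. Differences near 0 changed sign: Ctsk was 0.0075 with quantile normalization, 0.010 after centring, 0.040 within set A and -0.068 to 0.049 with an array left out, and Ctse was -0.018 within set B and -0.0028 to 0.71 with an array left out, lowest without wild-type array 4. Over all probe sets 33 were called, against 15 to 71 with an array left out, 15 with all probe sets tested, 8 with the floor, 7 at 0.01, 91 with the set block, 4 within set A and 6 within set B. Deviations of same-numbered arrays correlated at -0.14 to 0.35, so the numbers were not taken as pairs; the replicate block changed no other call and also called 33.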
